A study of Mus musculus with 16 samples.

Results

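The natriuretic peptide system was examined in skeletal muscle through 10 genes. These were the receptors *Npr1*, *Npr2* and *Npr3*, the ligands *Nppa*, *Nppb* and *Nppc*, the receptor-binding peptide *Ostn*, and *Mme*, *Corin* and *Furin*, whose products cut the peptides or their precursors. The genes were chosen by symbol and were 10 of the 55471 gene identifiers counted. Of these 10, 6 (*Npr1*, *Npr2*, *Npr3*, *Ostn*, *Mme* and *Furin*) passed the filter on low counts and are among the 14331 genes tested, and 4 (*Nppa*, *Nppb*, *Nppc* and *Corin*) were too low to test. None of the 6 tested genes passed the test for a difference by genotype label. *Npr2* had the highest mRNA level of the receptors, and no *Nppb* read was counted in any mouse.

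The mice were male *Npr1*+/- animals of the B6.129-Npr1tm1Gar/J strain, backcrossed to C57BL/6J, and their *Npr1*+/+ littermates. The study's design gives mice 12 weeks old and 12 weeks of high-fat diet (HFD), where the paper's methods give up to 12 weeks, and does not say whether that age is the one at the start of the diet. All of them had HFD, so that no group without HFD is compared. The *Npr1* allele is carried in the whole animal and not in muscle fibres alone, and the labels do not say which muscle was taken. In all, 10 libraries are labelled heterozygous and 6 wild type, 1 library per mouse, spread over 4 cages of 3 to 5 mice with both labels in each cage. Body weight was 43.6 ± 3.79 g for the 10 mice labelled heterozygous and 47.4 ± 4.69 g for the 6 labelled wild type (mean ± SD). Genotypes here are those of the labels, which the *Npr1* level did not bear out, and "heterozygous" and "wild type" stand for the label throughout. The design also names *Nppa*-/- mice, which are not analysed here.

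Natriuretic peptides are hormones that act through guanylyl cyclases. Atrial natriuretic peptide (ANP, gene *Nppa*) and B-type natriuretic peptide (BNP, *Nppb*) come mainly from heart muscle and bind guanylyl cyclase A (GCA, *Npr1*), whereas C-type natriuretic peptide (CNP, *Nppc*) binds guanylyl cyclase B (*Npr2*), and both receptors make cyclic GMP in the target cell. Natriuretic peptide receptor C (*Npr3*) has no cyclase domain and takes the peptides out of circulation. Osteocrin, also called musclin (*Ostn*), is made by muscle and bone and binds this clearance receptor. Corin cuts the ANP precursor at the cell surface, furin is a general convertase that also cuts CNP and BNP precursors, and neprilysin (*Mme*) degrades the mature peptides.

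The ligands share a ring that is closed by a pair of cysteines, and osteocrin holds 2 stretches like it without these cysteines. The coding bases of the ring in *Nppb* and *Nppc* and of the stretches in *Ostn* are shown because they set out how the muscle-made peptide differs from ligands of the cyclases. They were read from the GENCODE M21 transcripts on GRCm38, 5′ to 3′ on the coding strand, and capitals mark the 8 codons of the stretch that follows the first ring codon. *Nppb* holds it at chr4:147986464-147986514 (plus strand, exon 2) and *Nppc* at chr1:86669667-86669717 (minus strand, exon 2). *Ostn* holds copy 1 at chr16:27324670-27324720 (plus strand, exon 3) and copy 2 at chr16:27346896-27346946 (plus strand, exon 4).

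Nppb: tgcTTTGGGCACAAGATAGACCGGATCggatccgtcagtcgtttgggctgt
Nppc: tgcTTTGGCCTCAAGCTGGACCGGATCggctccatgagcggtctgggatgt
Ostn copy 1: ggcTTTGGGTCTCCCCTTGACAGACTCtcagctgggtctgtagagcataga
Ostn copy 2: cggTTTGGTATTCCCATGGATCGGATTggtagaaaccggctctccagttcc

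Against *Nppb*, 40 of the 51 bases were identical in *Nppc*, and 13 of 17 codons gave the same residue. In the *Ostn* copies 21 and 23 bases were identical, and 5 and 6 of 17 codons gave the same residue. A cysteine codon stands at both ends of the ring in *Nppb* and *Nppc* and in neither *Ostn* copy. The ligands with this ring were the genes with the fewest reads in muscle, together with *Corin*. *Ostn* had the highest mean level per length of all 10 over the 16 mice, but was not clearly above *Npr2*.

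Counts per library ranged from 15273472 to 59682677, with a median of 20409174.5 in the libraries labelled *Npr1*+/- and 24015244.5 in those labelled *Npr1*+/+, and the highest total was that of replicate 5 labelled *Npr1*+/-. No pair of libraries was identical. Levels are given as CPM (counts scaled by TMM to a common library size) within a gene and as RPKM (the same per kilobase of the gene length in the table) between genes. The heart-defining genes *Myl7*, *Gata4* and *Nkx2-5* had 0 counts in all 16 libraries, *Tbx5* had 5 counts in all, and the other 4 heart markers were detected (*Myl4* 7859 counts, *Tnnt2* 912, *Myh6* 585 and *Tnni3* 117). The summed level of 8 fast fibre markers was 76063 to 145907 CPM under one label and 76713 to 130633 CPM under the other. Each library is bulk tissue, in which fewer cells of a type and less RNA per cell cannot be told apart.

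*Npr1*, the gene targeted in this strain, did not have a lower level in the libraries labelled *Npr1*+/-. It lies on the minus strand at chr3:90450591-90465866 (GRCm38). Its level ranged from 9.82 to 22.2 CPM with a median of 12.0 in the 10 libraries labelled *Npr1*+/-, and from 10.3 to 13.4 CPM with a median of 12.4 in the 6 labelled *Npr1*+/+. The heterozygous range holds that of the wild type at both ends, and its upper end is set by replicates 6 (22.2 CPM) and 7 (17.6 CPM). The means were 13.6 ± 3.87 CPM (SD, n = 10) and 12.2 ± 1.05 CPM (SD, n = 6). In edgeR's quasi-likelihood test with cage and body weight as covariates, the log2 fold change was 0.09 (standard error 0.20, 95% interval -0.33 to 0.51, p = 0.657, Benjamini-Hochberg adjusted p = 1). A level halved in the libraries labelled *Npr1*+/- would be a log2 fold change of -1, which lies outside this interval. The estimate turned to -0.07 without replicate 6 labelled *Npr1*+/-, also short of significance (p between 0.347 and 0.951 over all libraries left out in turn). The count covers the whole gene and does not tell the alleles apart. Whether the targeted allele still gave counted reads, or a label is wrong, cannot be told apart in these counts, and every direction is between libraries as labelled.

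*Npr2* and *Npr3*, the receptors other than GCA, did not pass the test by label either. *Npr2* (chr4:43631935-43651244, plus strand) ranged from 26.9 to 84.0 CPM with a median of 47.6 in the libraries labelled *Npr1*+/-, and from 27.9 to 50.0 CPM with a median of 44.2 in those labelled *Npr1*+/+. Replicates 3, 5, 6 and 7 labelled *Npr1*+/- (54.2, 61.8, 83.7 and 84.0 CPM) were above all wild-type libraries, replicate 9 (26.9 CPM) was just below them, and the other 5 lay among them. Its log2 fold change was -0.01 (standard error 0.23, 95% interval -0.49 to 0.48). *Npr3* (chr15:11839896-11907287, minus strand) ranged from 4.31 to 16.9 CPM (median 10.7) and from 6.17 to 19.5 CPM (median 11.2), and its log2 fold change was -0.20 (standard error 0.38, 95% interval -0.99 to 0.60). It varied most of the tested genes, 4.52-fold between the lowest and the highest mouse, and both labels spread over nearly the same range. Without replicate 4 labelled *Npr1*+/+, its highest library, the *Npr3* estimate was 0.20.

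*Ostn*, the muscle-made ligand of the clearance receptor, had the largest estimate of the 6 genes, and this too did not pass the test. *Ostn* (chr16:27307489-27351212, plus strand) ranged from 7.11 to 26.4 CPM with a median of 14.9 in the libraries labelled *Npr1*+/-, and from 11.5 to 26.7 CPM with a median of 18.4 in those labelled *Npr1*+/+. The lowest values belonged to replicates 6, 5 and 7 labelled *Npr1*+/- (7.11, 7.27 and 7.86 CPM), which lay below all others, and the remaining 7 overlapped the wild type throughout. The log2 fold change was -0.30 (standard error 0.28, 95% interval -0.89 to 0.30, p = 0.307, adjusted p = 1 from edgeR). Within cages the mean log2 CPM was lower under the heterozygous label in 4 of 4 cages, by -1.48 to -0.21, although 3 of these cages have only 1 mouse of one label. With cage as the only covariate the estimate was -0.58 (unadjusted p = 0.0532 in edgeR), and without replicate 5 labelled *Npr1*+/- it was -0.15.

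The proteases likewise did not pass the test. Neprilysin (*Mme*, chr3:63241537-63381096, plus strand) ranged from 7.32 to 16.5 CPM (median 10.4) under the heterozygous label and from 8.83 to 14.8 CPM (median 10.4) under the wild-type label, and its log2 fold change was 0.10 (standard error 0.18, 95% interval -0.28 to 0.49). *Furin* (chr7:80388585-80405431, minus strand) ranged from 28.8 to 75.5 CPM (median 60.0) and from 27.6 to 68.2 CPM (median 49.4), and its log2 fold change was -0.06 (standard error 0.22, 95% interval -0.52 to 0.40). For *Mme* the 3 lowest libraries and the highest one, and for *Furin* the 3 highest, were labelled *Npr1*+/- and lay beyond the wild-type range, and the other heterozygous libraries lay within it.

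Of the 6 tested members, 0 were called by genotype label at an adjusted p-value under 0.05 and 0 at an unadjusted one in edgeR. Over all genes 0% were called at the adjusted threshold and 1.05% at the unadjusted one, which is 151 genes. The labels failed to overlap in 0 of the 6 members and in 0.00698% of all genes (1). DESeq2 and limma-voom also called 0 of the 6 at the adjusted threshold, where they called 0.0419% (6) and 0% of all genes. The median log2 fold change was -0.03 over the 6 members and -0.01 over all 14331 genes. The sign of *Npr2*, *Furin* and *Mme* turned with the choice of covariates, and no sign is read from them.

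**Figure D1:**
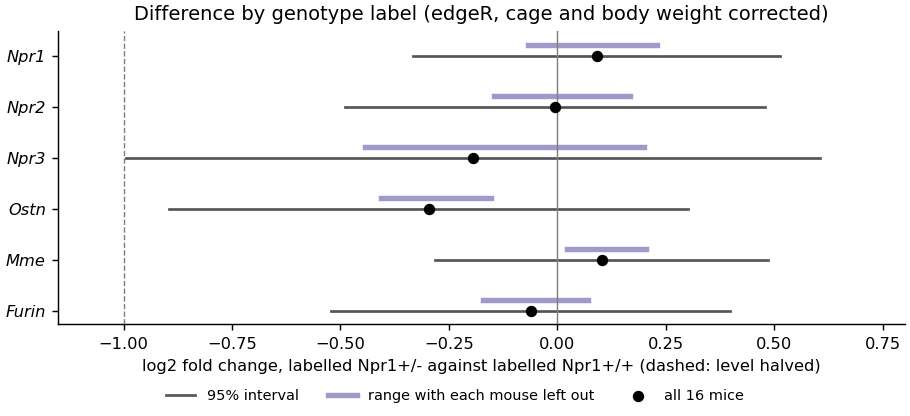
Log2 fold change of the 6 tested genes between libraries labelled *Npr1*+/- (n = 10) and *Npr1*+/+ (n = 6), with the 95% interval of the edgeR fit and, in purple, the range of estimates when each mouse is left out in turn. All 6 intervals span 0, and that of *Npr1* (-0.33 to 0.51) ends well short of the dashed line of a halved level.

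The order of the members' levels was set per length, in RPKM, over all 16 mice and as a description. *Ostn* (11.4 ± 4.29 RPKM, SD, n = 16) and *Npr2* (10.4 ± 3.54 RPKM) stood at the top and could not be ordered, since *Ostn* was the higher in 10 of 16 mice. *Furin* followed at 5.99 ± 1.59 RPKM, below *Npr2* in all 16 mice. *Npr1* came next at 2.74 ± 0.66 RPKM, then *Npr3* at 1.18 ± 0.51 RPKM and *Mme* at 0.93 ± 0.22 RPKM, and *Npr3* and *Mme* could not be ordered either (*Npr3* higher in 10 of 16 mice).

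The receptors kept 1 order per length in every mouse. *Npr2* was above *Npr1* in 16 of 16 mice, with a ratio of RPKM between 2.73 and 4.89 and a median of 3.87. *Npr1* was above *Npr3* in 16 of 16, with a median ratio of 2.88 and a range of 1.14 to 5.56. That step rests on the gene length, 4783 bases for *Npr1* and 9389 for *Npr3*. In CPM *Npr3* was above *Npr1* in replicates 5 and 10 labelled *Npr1*+/- and in replicates 3, 4 and 6 labelled *Npr1*+/+. The mRNA of the CNP receptor was thus the most abundant per length, and that of the clearance receptor the least. The log2 ratio of *Npr1* to *Npr3* was 1.42 ± 0.63 over the 10 heterozygous libraries and 1.14 ± 0.62 over the 6 wild-type libraries (mean ± SD), a difference smaller than either SD.

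The ring ligands and *Corin* were near the floor of detection. *Nppb*, the BNP gene (chr4:147985788-147987205, plus strand), had 0 counts in 16 of 16 libraries, which over the 370800592 counts of all libraries allows a level of up to 0.00809 CPM (3 counts). *Nppa*, the ANP gene, lies 13516 bases further along the same chromosome (chr4:148000722-148002079, plus strand) and had 24 counts in all, 12 under each label. The opposite-strand gene *Gm13054*, which overlaps *Nppa*, had 15 counts, and reads of both cannot be told apart. It had 0 counts in 5 of 10 libraries labelled *Npr1*+/- and in 1 of 6 labelled *Npr1*+/+, and its highest count was 7, in replicate 9 labelled *Npr1*+/-. Pooled over libraries the *Nppa* level was 0.0517 CPM under the heterozygous label (exact 95% Poisson interval 0.0267 to 0.0903) and 0.0866 CPM under the wild-type label (0.0448 to 0.151), intervals that overlap and cover counting error only. Without replicate 9 the heterozygous level was 0.0240 CPM (0.00779 to 0.0560), from 5 counts, and its interval still overlaps that of the wild type.

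*Nppc*, the CNP gene (chr1:86666291-86670571, minus strand), was the only ring ligand with a read in every mouse. Its counts were 2 to 30 per library and 156 in all. Replicate 4 labelled *Npr1*+/- held 30 of them (1.46 CPM), and no other library was above 0.653 CPM. Pooled, *Nppc* was at 0.396 CPM (0.319 to 0.486) under the heterozygous label and 0.462 CPM (0.356 to 0.590) under the wild-type label.

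*Corin*, the protease of the ANP precursor (chr5:72300025-72504473, minus strand), had 109 counts in all, from 0 to 23 per library. It was at 0.310 CPM (0.243 to 0.390) and 0.267 CPM (0.188 to 0.368) pooled under the heterozygous and the wild-type label. Per length the 3 genes with reads were at 0.419 RPKM (*Nppc*), 0.081 RPKM (*Nppa*) and 0.050 RPKM (*Corin*), and *Corin* and *Nppa* could not be ordered (*Corin* higher in 7 of 16 mice). Differences in these genes were not detectable at this depth. When the filter on low counts was dropped, none of *Nppa*, *Nppc* and *Corin* was called by label (unadjusted p = 0.417, 0.794 and 0.848 in edgeR, adjusted p = 1).

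**Figure D2:**
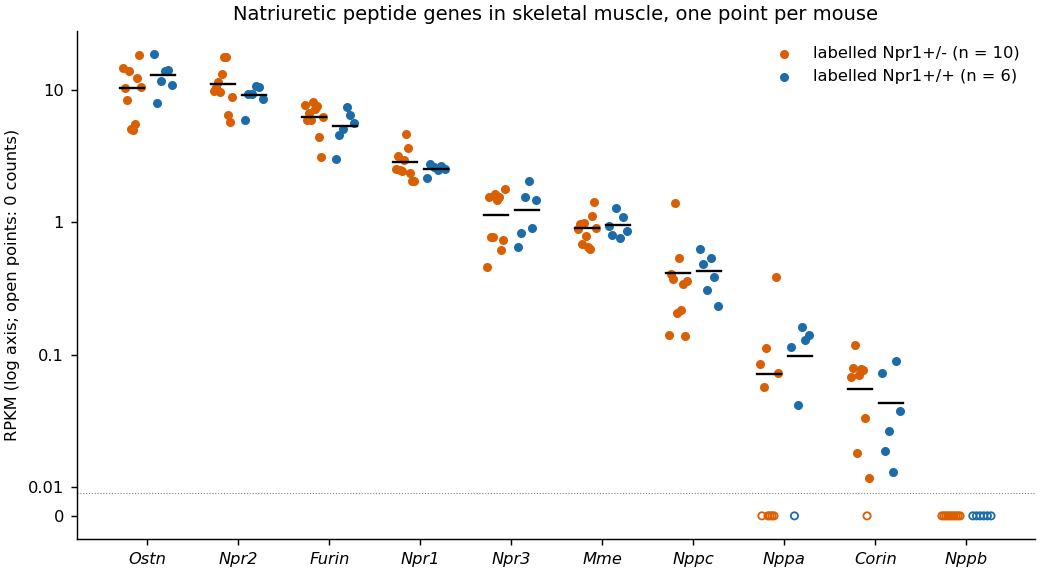
RPKM of the 10 genes on a log axis, 1 point per mouse, for libraries labelled *Npr1*+/- (orange, n = 10) and *Npr1*+/+ (blue, n = 6), with the mean of each label as a black line and open points for 0 counts. *Ostn* and *Npr2* stand at about the same height, *Npr2*, *Npr1* and *Npr3* descend in this order, and *Nppb* lies at 0 in all mice.

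A few mice carried most of the spread, and the members moved together in them. Replicates 5, 6 and 7 labelled *Npr1*+/- had the lowest *Ostn* and the highest *Npr2* of all 16, and replicates 6 and 7 the highest *Npr1*. At the other end, replicate 9 labelled *Npr1*+/- and replicate 1 labelled *Npr1*+/+ had the lowest *Npr2* (26.9 and 27.9 CPM), the lowest *Furin* (28.8 and 27.6 CPM) and the highest *Ostn* (26.4 and 26.7 CPM). These 5 mice came from cages 675, 677 and 678. *Npr3* went the same way as *Npr2* in these 5 mice, with 15.5, 14.0 and 14.6 CPM in replicates 5, 6 and 7. It was at 6.96 CPM in replicate 9 and 6.17 CPM in replicate 1 labelled *Npr1*+/+. Its extremes lay in other mice, at 4.31 CPM in replicate 1 and 16.9 CPM in replicate 10 labelled *Npr1*+/- and 19.5 CPM in replicate 4 labelled *Npr1*+/+.

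As a description over the 16 libraries, which each sample shares between genes, log2 CPM of *Npr2* was correlated with *Npr1* (Pearson r 0.85, Spearman rho 0.72) and with *Furin* (0.83 and 0.86). It ran opposite to *Ostn* (-0.82 and -0.61) and to *Mme* (-0.75 and -0.71). *Ostn* and *Mme* ran together (0.72 and 0.64). *Npr1* and *Npr3*, which bind the same hormone, were correlated less (0.38 and 0.38).

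The same libraries differed in a property of all genes. A length index was taken for each library, the median log2 deviation from the mean of all libraries over the longest genes (above the upper quartile of length) minus that over the shortest (below the lower quartile). It was highest in replicates 7, 6 and 5 labelled *Npr1*+/- (0.97, 0.69 and 0.55) and lowest in replicates 9 and 10 (-0.65 and -0.58), with -0.34 in replicate 1 labelled *Npr1*+/+. The index was correlated with *Npr1* over the 16 libraries (r = 0.874, permutation p = 2e-05, adjusted 0.00038, and rho = 0.844, permutation p = 4e-05, adjusted 0.00076). *Ostn* ran inversely to it (r = -0.863, permutation p = 5e-05, adjusted 0.000475, and rho = -0.829, permutation p = 0.00011, adjusted 0.00105). *Npr2* followed it as well (r = 0.824, permutation p = 9e-05, adjusted 0.00057, and rho = 0.706, permutation p = 0.0029, adjusted 0.0122). Without the 2 libraries farthest from the median of the index, r was 0.817, -0.772 and 0.639, and without the 3 libraries of the highest index it was 0.796, -0.607 and 0.521 (n = 13). These were 3 of 19 relations computed together, and cages of 3 to 5 mice are too small for a value within each cage. The first principal component, the main axis of variation over all tested genes, held 43.7% of the variance. Replicates 7, 6 and 5 labelled *Npr1*+/- also lay at one end of it, and replicates 9 and 10 at the other. The share of all genes with an r this strong was not computed, so the relations are not shown to be particular to these members.

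The other 3 genes had r nearer to 0 with the length index. It was 0.397 for *Npr3* (permutation p = 0.127, adjusted 0.172), -0.611 for *Mme* (permutation p = 0.0112, adjusted 0.0304) and 0.517 for *Furin* (permutation p = 0.0398, adjusted 0.0756). So *Mme* also passed the adjusted threshold in r, but not in rho (-0.532, permutation p = 0.0356, adjusted 0.0775). Its r was -0.347 without the 2 libraries farthest from the median of the index. Transcripts of *Npr1*, *Npr2* and *Furin* are rich in G and C (57.4%, 55.0% and 55.9%), whereas those of *Npr3*, *Ostn* and *Mme* are not (44.01%, 40.3% and 38.0%). A GC index built in the same way had r = 0.725 with *Npr2*, -0.706 with *Mme*, 0.685 with *Furin* and 0.560 with *Npr1* (adjusted permutation p = 0.0076, 0.00775, 0.0101 and 0.0488), and without the 2 farthest libraries r was 0.559, -0.630, 0.693 and 0.285, so that the relation of *Npr1* rested on those libraries. The summed level of 7 endothelial markers was also highest in replicates 7, 6 and 5 labelled *Npr1*+/- (523, 458 and 332 CPM), against 198 to 251 CPM in the libraries labelled *Npr1*+/+, and 0 of the 7 were called by label. Sums of other cell types also differed, not all in each of the same libraries. The sum of 5 fibroblast markers was 647, 748 and 745 CPM in replicates 7, 6 and 5 (ranks 16, 13 and 14 of 16) and highest in replicate 9 (1630 CPM), and that of 3 red cell markers was 80.9, 262.8 and 143.4 CPM in replicates 7, 6 and 5 (ranks 16, 6 and 15) and highest in replicate 9 (480.2 CPM). The part of length, GC content and RNA of these cell types in the members' levels was not tested.

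**Figure D3:**
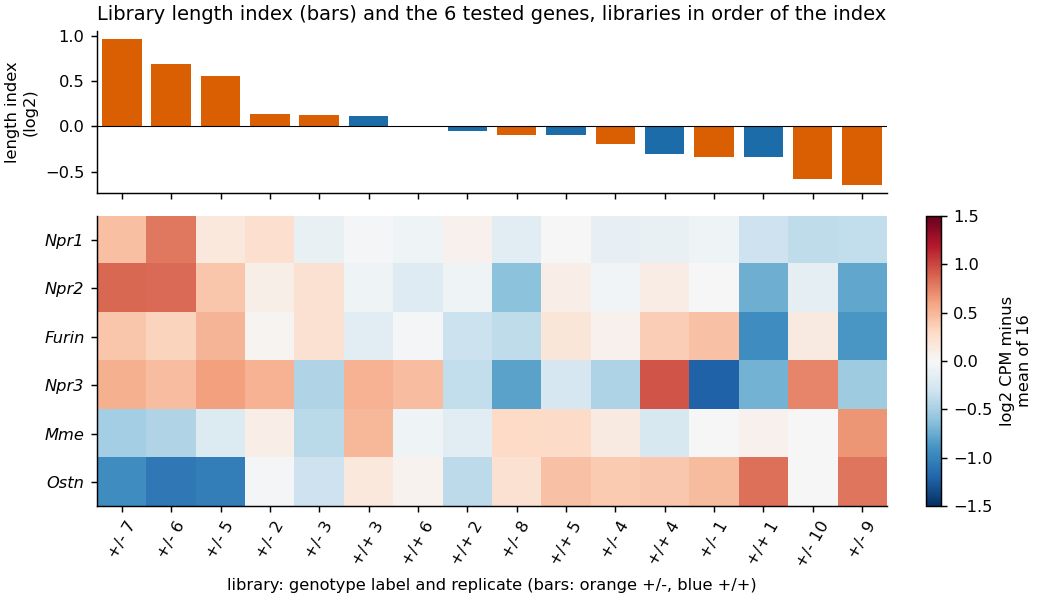
Length index of each library (bars, log2, orange for *Npr1*+/- and blue for *Npr1*+/+ labels) above the level of the 6 tested genes in the same library (colours, log2 CPM minus the mean of 16), with libraries in order of the index. The 3 libraries at the left, with an index of 0.97, 0.69 and 0.55, are the lowest in *Ostn* and the highest in *Npr2*.

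The nearest neighbours of each member over the 16 libraries were named by the Pearson r of log2 CPM among all tested genes. For *Npr1* they were *Atxn2l* (0.95), *Xpo6* (0.95) and *Phldb1* (0.95). For *Npr2* they were *Paf1* (0.99), *Stim1*, a calcium sensor of the sarcoplasmic reticulum (0.99), and *Smarcc2* (0.99). *Furin* was nearest to *Wdtc1* (0.98), *Mtss1l* (0.98) and *Rxra*, a nuclear receptor (0.98).

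The genes of lower GC content had other neighbours. *Ostn* was nearest to *Txndc9* (0.96), the proteasome subunit *Psma1* (0.95) and *Sh3bgr* (0.95), and *Mme* to *Angpt1*, a ligand of the endothelial receptor Tie2 (0.91), the fatty acid transporter *Cd36* (0.91) and *Haus3* (0.90). *Npr3* had the weakest neighbours, *Chst1* (0.86), *Klhdc7a* (0.86) and the fatty acid desaturase *Scd1* (0.84). No neighbour was shared between members among these 18.

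Body weight was compared because it is a covariate of the study's own model, with a slope in log2 units per g in the same edgeR fit. *Mme* had a positive slope of 0.07 (standard error 0.02, 95% interval 0.02 to 0.12, p = 0.00583, adjusted p = 0.245). *Npr2* and *Furin* had negative slopes of -0.08 (standard error 0.03, p = 0.0172, adjusted p = 0.247) and -0.08 (standard error 0.03, p = 0.0144, adjusted p = 0.245). The slopes of *Ostn* (0.07, p = 0.0708), *Npr1* (-0.03, p = 0.332) and *Npr3* (-0.03, p = 0.593) did not pass the unadjusted threshold in edgeR. So 0 of 6 members were called at the adjusted threshold, where 0% of all genes were, and 3 of 6 at the unadjusted one, where 17.1% of all genes (2449) were. limma-voom also called 0 of 6 at an adjusted p-value under 0.05, where it called 0% of all genes. DESeq2 gave an adjusted p-value for 2 of the 6, *Npr2* (0.146) and *Furin* (0.142), and called 0.884% of the 2940 genes that had one. At the unadjusted threshold DESeq2 and limma-voom counted 3 and 4 of 6, and 19.7% and 17% of all genes.

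These slopes moved with the covariates by more than 1.5 times. With the GC index as a further covariate, 0 of 6 members passed the unadjusted threshold in edgeR, where 4.23% of all genes did, and the slopes were 0.04 for *Mme*, -0.05 for *Npr2* and -0.05 for *Furin* (unadjusted p = 0.0711, 0.159 and 0.136). With the length index 2 of 6 passed (6.8% of all genes), and the slope of *Npr2* was -0.04 (unadjusted p = 0.113). With body weight as the only covariate 1 of 6, *Mme*, passed (8.21% of all genes), and the slope of *Npr2* was -0.04 (unadjusted p = 0.119).

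This comparison turned on 1 library. Without replicate 3 labelled *Npr1*+/-, a mouse of 40.1 g in cage 675 whose 3 cage mates weighed 46.2 to 54 g, 4 of 6 members were called for body weight, and 22.1% of all genes (3158 of 14284) were called with them. The slope of *Ostn* was then 0.14 (standard error 0.03, adjusted p = 0.00881 from edgeR) and that of *Mme* 0.09 (standard error 0.03, adjusted p = 0.0269), both higher in heavier mice. The slopes of *Npr2* and *Furin* were -0.12 (standard error 0.03, adjusted p = 0.0114) and -0.11 (standard error 0.03, adjusted p = 0.0292), both lower in heavier mice. *Npr1* (-0.06, adjusted p = 0.0760) and *Npr3* (-0.08, adjusted p = 0.332) were not called.

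With the length index or the GC index as a further covariate, again without this library, 0 members and 0 genes were called in edgeR for body weight. The library itself ranked 11 of 16 in *Npr1* and 4 of 16 in *Npr2*, from the highest, and had the lowest summed level of 5 adipocyte markers (16.8 CPM, against 39.9 to 327 CPM in the other 9 heterozygous libraries and 64.5 to 209 CPM in the wild type). It was also the lowest of 16 in macrophage (13.2 CPM) and tendon markers (198.5 CPM) and the last but one in fibroblast markers. In the other lists it was not at an end. From the highest, it ranked 5 in endothelial, Schwann cell and heart markers, 8 in fast fibre, 9 in red cell, 10 in smooth muscle and pericyte and 11 in slow fibre markers. Its part in the body weight slopes beyond the values above was not tested.

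**Figure D4:**
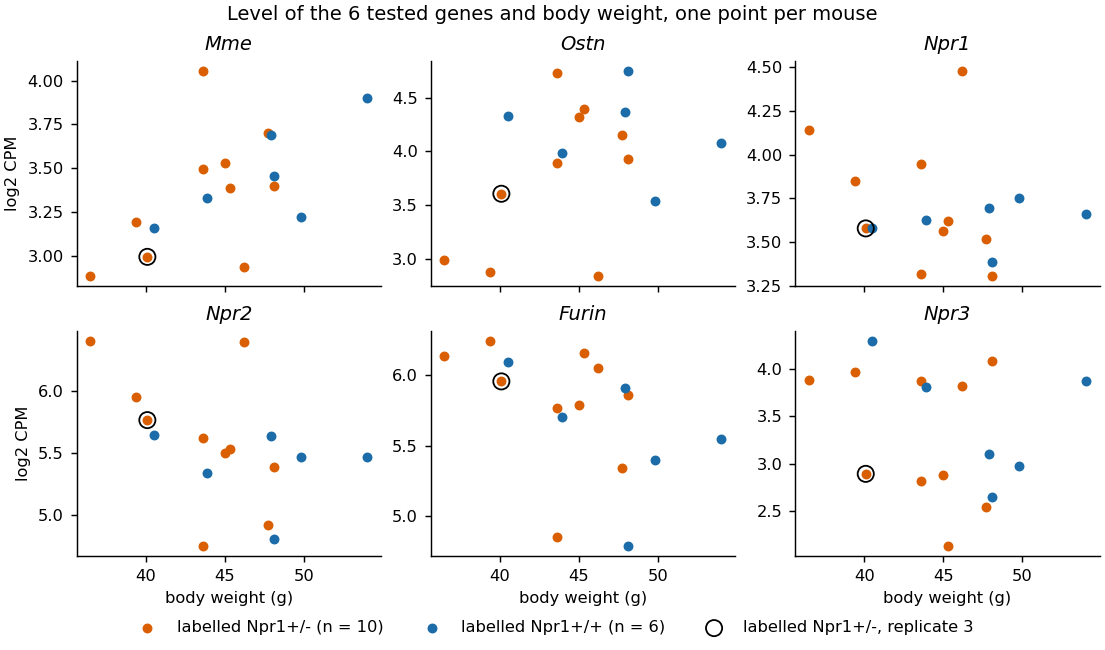
Log2 CPM of the 6 tested genes against body weight in g, 1 point per mouse, orange for *Npr1*+/- labels (n = 10) and blue for *Npr1*+/+ labels (n = 6), not corrected for cage, with replicate 3 labelled *Npr1*+/- ringed. The points scatter widely, with r = 0.568 for *Mme*, -0.451 for *Npr2* and -0.465 for *Furin* (adjusted permutation p = 0.0488, 0.114 and 0.111), and r = 0.290 for *Mme* without the 2 mice farthest from the median weight.

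Cage was the remaining term of the model. In edgeR, 0 of 6 members were called for cage at the adjusted threshold, where 0.0279% of all genes (4) were. At the unadjusted threshold 1 of 6, *Ostn* (p = 0.0412, adjusted p = 0.656), was counted, where 7.36% of all genes (1055) were. The mean level of *Ostn* was 11.9 CPM in cage 675, 16.6 in cage 677, 17.8 in cage 678 and 18.6 in cage 676, and the lowest mouse of cage 676 (15.1 CPM) lay above 3 of the 4 mice of cage 675. Without replicate 3 labelled *Npr1*+/-, *Ostn* was called for cage (adjusted p = 0.0211), 1 of 6 members, where 6.08% of all genes (869) were. The adjusted p-values of the other 5 genes in the fit of all mice were 0.664 to 0.950.

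The rest of the pathway was examined through 34 further genes, of which 28 were tested and 0 were called by label in edgeR in either direction, at the adjusted or at the unadjusted threshold. Estimates were positive in 17 and negative in 11, with a median log2 fold change of 0.05 (-0.30 to 0.68) beside -0.01 over all genes. The other guanylyl cyclases (4 of 5 tested, median 0.19) and the effectors of cyclic GMP (6 of 6, median 0.17) had positive estimates throughout. These ranged from 0.03 (standard error 0.15) for *Vasp* to 0.46 (standard error 0.33) for *Gucy2g*. Whether the signs in this list turn with the choice of covariates was not tested, and no direction is read from them. The phosphodiesterases, which break down cyclic nucleotides, had 3 positive and 6 negative estimates of 9 (median -0.05).

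The smallest p-values of this list were those of the phosphodiesterase *Pde2a*, the cyclase *Gucy2g* and the peptidase *Dpp4*. *Pde2a* was at 1.13 ± 0.54 CPM (SD, n = 10) under the heterozygous label and 0.781 ± 0.496 CPM (SD, n = 6) under the wild-type label. Its log2 fold change in edgeR was 0.68 (standard error 0.41, p = 0.113, adjusted p = 1). *Gucy2g* and *Dpp4* had log2 fold changes of 0.46 (standard error 0.33, p = 0.183) and 0.30 (standard error 0.25, p = 0.249). All 3 genes were low, with at most 227 counts in any library.

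For body weight, 4 of the 28 passed the unadjusted threshold (17.1% of all genes did), and 0 passed the adjusted one. They are named because they are few, after their values were seen. *Dpp4* had a slope of 0.09 log2 units per g, and *Ece1*, an endothelin-converting enzyme (-0.14), the nucleotide exporter *Abcc4* (-0.11) and the cyclic GMP phosphodiesterase *Pde9a* (-0.08) had negative slopes. The adjusted p-values in edgeR were 0.245 to 0.288.

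**Figure D5:**
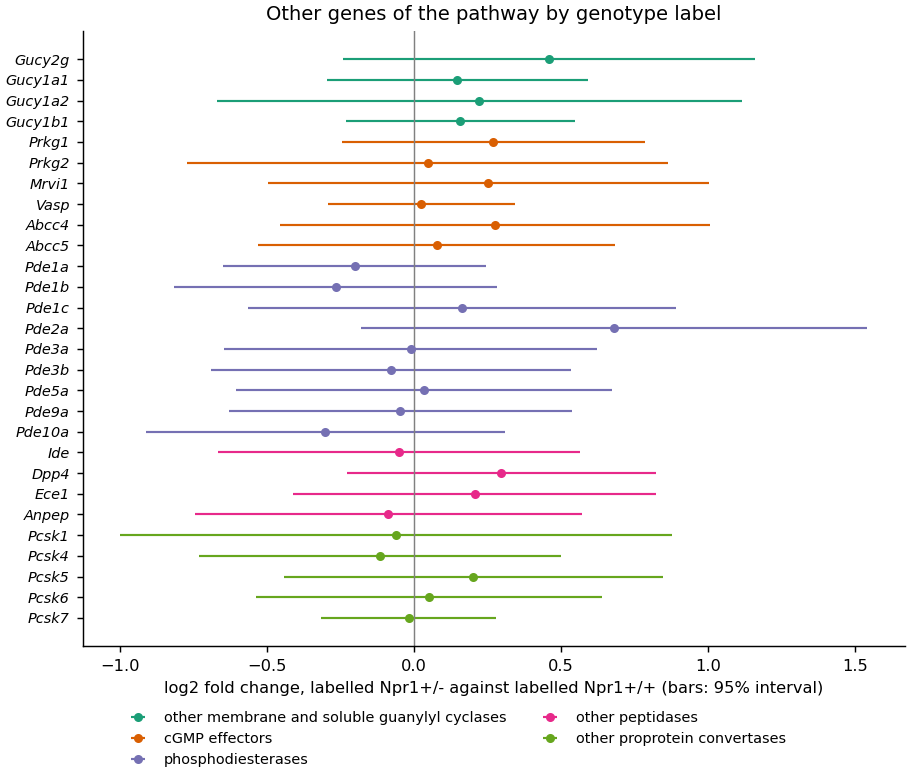
Log2 fold change of the 28 tested genes of the wider pathway between libraries labelled *Npr1*+/- (n = 10) and *Npr1*+/+ (n = 6), with 95% intervals of the edgeR fit, coloured by function. Every interval spans 0, and the highest estimate, 0.68 for *Pde2a*, has one of the widest.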

How the data were processed

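The authors mapped 52-bp paired reads of 16 muscle libraries to GRCm38 with STAR 2.7.2b and deposited raw counts per GENCODE M24 gene from featureCounts 1.6.4 (versions from the submitters' notes). The labels name a Tecan library kit and the paper a stranded Illumina one, and the strand setting of the counting is not given in the sources used here. Reads of 7 opposite-strand genes that overlap *Npr1*, *Npr2*, *Npr3*, *Nppa*, *Ostn* and *Furin* could therefore not be told apart from theirs, and the largest overlapping count was 661, in Gm12473 at *Npr2*, against 18638 for *Npr2*, while Gm13054 at *Nppa* had 15 counts against 24 for *Nppa*. Of 55471 identifiers, 55144 were paired with a symbol through GENCODE M21.

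Groups, cage and body weight came from the labels. Genes were filtered with filterByExpr by label (minimum count 10), scaled with TMM and tested with the quasi-likelihood test of edgeR 4.0.16 (R 4.3.3, robust = TRUE, legacy = TRUE) with cage and body weight as covariates, as in the study's model, and p-values were adjusted over 14331 genes with a threshold of 0.05. Pooled levels carry exact 95% Poisson intervals, and the floor is 3 counts. Intervals and floors cover counting error only, and totals of 15273472 to 59682677 counts set them. The indices used the deposited gene length and the GC content of GENCODE M21 transcripts (14318 genes). Correlations of levels with the indices and body weight were tested with two-sided permutation tests of 100000 resamples, adjusted over 19 relations. The fit was also run on simulated counts with independent noise and differences by label only. These had no effect of cage or body weight and no variation shared across genes, so that run does not bear on such features.

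The members and lists were chosen with earlier results of these data known. The text names all 10 members, the 3 pathway genes with the smallest p-values for the label, and the 3 tested genes with the highest r with each tested member. The alternatives were fits with fewer covariates or with a block for the replicate number, other scalings and filters, DESeq2 1.42.0, limma-voom (limma 3.58.1) and leaving out each mouse. The indices as covariates, also without 1 mouse, and *Nppa* without 1 mouse were added after the data were seen. All 16 samples entered the fit as reported. The labels do not tie same-numbered replicates of the 2 genotypes to each other. One sequence is not reported here.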

Additional observations from a re-analysis of the deposited data

Results flagged for a closer look

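The *Npr2* level of replicate 1 labelled *Npr1*+/+ stood apart from the other 5 wild-type libraries, at 4.81 on the log2 CPM scale (27.9 CPM), where the others lay between 40.5 and 50.0 CPM. On the log2 scale, its gap to the nearest of them, as a share of the range of all 6, exceeded Dixon's 95% critical value for 6 samples. The flag holds for that scale only. The 6 tested genes gave 12 groups to examine, of which this was 1, and chance gives about 0.6. The same library was the lowest of all 16 in *Furin* and the highest in *Ostn*.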

How the results depend on the processing

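No member was called by genotype label under any alternative or with any mouse left out. Over all genes the label called 0 genes in the fit as reported, 2 with the replicate number as a block, 6 with DESeq2, 8 without a filter, 2 with the length index and 0 to 3 with each mouse left out. Same-numbered replicates share only a number (mean correlation 0.0779 over 6 pairs, and 0 of 6 wild-type libraries correlated best with their own number), and with the replicate block *Npr2* had an unadjusted p of 0.0401. Cage called 4 genes, but 0 with library size alone, 78 with DESeq2, 1 with limma-voom, 23 without a filter, 1 with at least 10 counts in every library, 8 with the length index, 2 with the GC index and 0 to 869 with each mouse left out, and it called 0 to 1 members. Body weight called 0 genes, but 26 with DESeq2 (which gave 2940 genes and 2 members an adjusted p-value) and 0 to 3158 with each mouse left out, and 0 to 4 members, the highest values being those without replicate 3 labelled *Npr1*+/-.

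The sign of the log2 fold change turned for *Npr2* with no covariates (0.29), cage alone (0.30), weight alone (0.11), the block (0.43), RLE scaling (0.0030), DESeq2 (0.0029) and no filter (0.0044), for *Mme* with no covariates (-0.087), cage alone (-0.21) and the block (-0.013), and for *Furin* with no covariates (0.24), cage alone (0.23), weight alone (0.088) and the block (0.33). The slope on body weight turned for *Npr1* with the length index (0.011) and for *Npr3* with the GC index (0.019). With each mouse left out the label estimate ranged from -0.067 to 0.23 for *Npr1*, -0.15 to 0.17 for *Npr2*, -0.44 to 0.20 for *Npr3* and -0.17 to 0.069 for *Furin*, and the slope of *Npr3* from -0.078 to 0.0054. Causes of these changes were not tested. At these depths *Nppb* could not be tested and *Nppa*, *Nppc* and *Corin* could be tested only without the filter, and p-values measure the spread between mice of 1 cohort.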
